A study of Mus musculus with 72 samples.

Results

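The genotype effect of the conserved noncoding element E3 after 72 h without food was described from 6 of the 72 hypothalamus libraries of the study, 3 from E3 knockouts and 3 from wild types of the same line. These are all the libraries that the labels place in those groups. Both groups were adult mice on the B6 background that had water but no food, so fasting is shared by knockouts and controls. Fed E3 knockouts and fed E3 wild types (3 libraries each) served to ask whether an effect differed with feeding, and the fasted animals of the lines E1, E2, E4 and E5 were compared once. RNA was total RNA of the dissected hypothalamus, and the batch field of the labels gives all 12 E3 libraries 1 shared number, followed by a number of each library's own. The position of E3 and how many founders the line came from are not given in the sources used here, so no gene count checks the deletion. Nothing says whether each library is 1 animal, and the p-values measure the spread between these libraries.

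The hypothalamus holds the neurons that sense energy stores and set feeding, body temperature and arousal. In a long fast, glucocorticoid from the adrenal gland and FoxO transcription factors switch on genes that spare glucose and mobilise fat, and orexigenic peptides such as melanin-concentrating hormone are made in larger amounts. The deposited tables carry the name of Fto, a gene for an RNA demethylase whose introns are known to hold distant regulatory elements of the neighbouring Irx genes.

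The fasted knockout libraries held 17185785, 19625645 and 23619033 counts and the wild type libraries 14911351, 16316777 and 16574675, so that every knockout library was deeper than every wild type library. All 6 expressed Ddx3y, a gene of the Y chromosome, with 91.9 to 136 CPM. Hypothalamic markers were present in each: in CPM (counts scaled to the library total), Hcrt was at 17.7 to 30.0, Pmch at 30.6 to 81.5, Nkx2-1 at 4.54 to 10.3 and Sim1 at 16.3 to 31.9. The 12 markers of the anterior pituitary summed to at most 1.91 CPM. Transcripts of neighbouring tissues differed between libraries. Choroid plexus markers (14 genes) summed to 767 CPM in knockout 2 and 496 in wild type 1 against 81.8 to 158 in the other 4 libraries, meningeal markers (12) to 295 in wild type 2 against 92.0 to 137, and exocrine pancreas genes (18, listed after the values had been seen) to 79.8 in wild type 1 against 6.37 to 10.7. Thalamic markers (12) summed to 1881, 2747 and 2574 CPM in knockouts and to 1850, 1263 and 2325 in wild types. The part of these tissues in the results below was not tested, apart from the values given without single libraries. In bulk tissue, fewer cells of a type and less RNA per cell cannot be told apart.

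With edgeR's quasi-likelihood test on the 6 libraries, 0 of 14590 genes differed between fasted knockouts and wild types at an adjusted p under 0.05 (percent called 0). The smallest adjusted p was 0.146. At an unadjusted p under 0.05 there were 2546 genes (17.5%), of which 1098 (7.53%) had higher and 1448 (9.92%) lower estimates in knockouts. The share of 17.5% was 16.7%, 15.5% and 9.72% without knockouts 1, 2 and 3. Without wild types 1, 2 and 3 it was 10.4%, 24% and 12.1%. It was 8.53% without both knockout 2 and wild type 1, the libraries with choroid plexus transcripts. These shares count both directions. Genes lower in knockouts numbered 1330, 1304 and 885 without knockouts 1 to 3, and 956, 1967 and 1073 without wild types 1 to 3. Higher genes numbered 1141, 985 and 550, and 584, 1580 and 715, in the same order. Without both libraries with choroid plexus transcripts 723 were lower and 526 higher. Between 14637 and 14810 genes were tested in these fits. Counts in lists below that leave out libraries are to be read against the genes of the same direction, or against the shares for both. In fed E3 mice the count at an unadjusted p under 0.05 was 1422 of 14602 (9.74%), with 0 called. Groups that did not overlap, with every knockout library above every wild type library or below it, were found for 1643 genes (11.3%) and 1801 genes (12.3%).

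Whether genes were called depended on how the spread was estimated. When all 12 E3 libraries shared 1 estimate of the spread, 605 of 15033 genes (4.02%) were called in the fasted contrast, 164 (1.09%) higher and 441 (2.93%) lower in knockouts. That count was 0 without wild type 1, 0 without wild type 3, 36 without knockout 3 and 1491 without wild type 2. DESeq2 on the 6 libraries called 539 of 8933 genes that it gave an adjusted p (6.03%), 110 (1.23%) higher and 429 (4.8%) lower, and 431 of these were among the 605. Its count was 108 without wild type 3, 111 without wild type 1, 128 without knockout 3 and 1416 without wild type 2. Below, values are given as estimates, and a gene is said to be called only with the model named.

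The called genes differed in base composition. The 164 higher genes had a median GC content of 56% in their longest transcript and the 441 lower genes 40.1%, against 49.5% over all genes tested. Over 14582 genes with a GC value, the log2 estimate was higher at higher GC content (Pearson r = 0.514 across genes, which are not independent), from a median of -0.43 in genes of up to 38% GC to 0.30 in genes over 62%. Transcript length showed no such relation (r = 0.021). The measure of each library's own GC trend, the median deviation of GC-rich minus GC-poor genes, was 0.06, 0.01 and 0.41 in fasted knockouts and -0.51, -0.08 and -0.40 in fasted wild types on the log2 scale, and 0.04 to 0.19 in the 6 fed libraries. Wild types 1 and 3 and knockout 3, the libraries on which the counts above rest, are the 3 farthest from the fed range. Base composition and genotype cannot be told apart in these 6 libraries, so the medians of the groups below are also given after the GC trend was removed from every library (GC trend out), which left 1220 genes (8.37%) at an unadjusted p under 0.05 and 0 called.

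**Figure D1:**
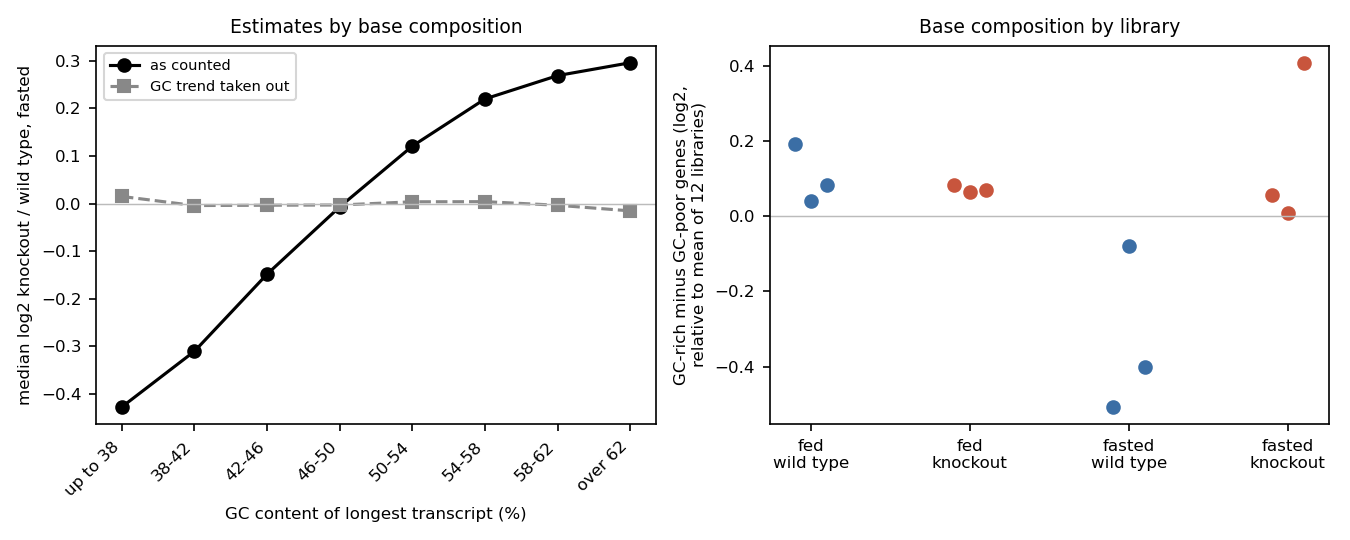
Left, median log2 knockout over wild type in fasted E3 mice (y axis) for genes grouped by GC content of the longest transcript (x axis, percent), as counted (black) and after removal of the GC trend per library (grey). Right, the GC trend of each of the 12 E3 libraries (y axis, log2, GC-rich minus GC-poor genes; 1 point per library). As counted, the median runs from -0.43 to 0.30, and fasted wild types lie at -0.51, -0.08 and -0.40.

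Genes of the locus that the tables name did not pass the test. Fto (ENSMUSG00000055932, mm10 chromosome 8, 91313525 to 91668439, plus strand) was at 248.2, 254.0 and 243.4 scaled CPM (CPM further scaled by the normalization factor) in wild types 1 to 3 and at 290.1, 273.8 and 288.3 in knockouts 1 to 3. All knockouts lay above all wild types. The estimate was 0.19 on the log2 scale (SE 0.10, edgeR adjusted p = 0.341), and 0.19 with the GC trend taken out. In fed mice the estimate was -0.18, and the difference between the feeding states was 0.38 (adjusted p = 0.119). Rpgrip1l, a ciliary gene that starts beside Fto, was at 74.4, 55.8 and 61.97 in wild types and 59.5, 54.2 and 45.5 in knockouts, which overlap (-0.27, and -0.02 with the GC trend taken out). The homeobox genes Irx3, Irx5 and Irx6 had estimates of 0.73, 0.78 and 0.67 at levels under 8 scaled CPM, and the groups overlapped for each. Within 2 Mb of the start of Fto, 0 of 14 measured genes had an unadjusted p under 0.05.

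The gene with the smallest p was Ropn1l, which encodes a protein of sperm tails and motile cilia with a domain like that of the regulatory subunit of protein kinase A (ENSMUSG00000022236, chromosome 15). It stood at 30.0, 25.1 and 33.2 scaled CPM in the wild type libraries, and the knockouts followed at 14.8, 15.3 and 14.99. The knockouts lay close together and below every wild type. The estimate was -0.97 (SE 0.14, edgeR adjusted p = 0.146), and -1.18 with the GC trend taken out. It was the 1 gene called by the 12-library model with the GC trend taken out, and DESeq2 called it with that step (adjusted p = 3.09e-07, among 0.684% of genes) and without it (3.69e-05). In fed mice Ropn1l was at 12.5 ± 0.942 in wild types and 14.9 ± 1.55 in knockouts (SD, n = 3 each, scaled over the 12 libraries), so the fasted wild types, at 29.4 ± 4.001, were the group apart. Its list, genes of the motile cilium axoneme, did not share its sign: 17 of 26 measured members had positive estimates, with a median of 0.23 (0.22 with the GC trend taken out). Foxj1, the master regulator of motile cilia, was at 12.9, 12.9 and 12.6 in wild types and 14.7, 17.7 and 24.3 in knockouts. Tekt4, a tektin of the axoneme, was at 4.47, 4.01 and 4.65 against 5.25, 6.60 and 9.01. At an unadjusted p under 0.05, 2 members were higher and 1 lower, a share of 11.5% against 17.5% of all genes. Without knockout 1, 10 were higher and 1 lower (42.3% against 16.7%). The median of the axoneme list was 0.09 without wild type 2, 0.10 without knockout 3, 0.15 without knockout 2 and 0.40 without knockout 1.

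The 11 other genes of smallest p with lower levels in knockouts, taken with a mean of at least 1 log2 CPM and a symbol that is not a predicted model, had estimates from -0.54 to -0.90. Gpm6a, a neuronal membrane glycoprotein, was the most abundant, at 1299, 1262 and 1293 scaled CPM in wild types and 828.2, 840.3 and 732.3 in knockouts (-0.68, SE 0.12). The zinc finger gene Zfp40 was at 57.6, 50.6 and 53.6 against 34.7, 32.0 and 27.1 (-0.79, SE 0.12). In both genes the wild types differed among themselves by less than from the knockouts. Srsf7, a splicing factor, was at 91.5, 78.3 and 86.5 in wild types against 57.98, 53.2 and 47.8 in knockouts. Cacybp, a partner of calcyclin in ubiquitin ligase complexes, was at 124.8, 113.3 and 113.3 against 76.9, 74.3 and 59.2. Cetn3, a centrin of the centriole, was at 68.5, 49.7 and 61.97 against 35.8, 34.5 and 28.9. For these 3 genes knockout 3 was the lowest library, and the groups did not overlap. The ubiquitin-system genes Ube2v2 (-0.81) and Eloc (-0.63), the X-linked Zfp711 (-0.68), Rab9b (-0.54) and Slitrk4 (-0.90), and Dnaja1 (-0.57) also had groups that did not overlap. After the GC step the estimates of these 11 genes moved toward 0, to between -0.26 and -0.48, each still with an unadjusted p under 0.05.

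Among the 12 genes of smallest p with higher levels in knockouts, Arrdc2, an arrestin-domain gene, had the largest estimate. It was at 16.4, 12.5 and 11.1 scaled CPM in wild types and 24.1, 35.3 and 24.8 in knockouts (1.08, SE 0.20, edgeR adjusted p = 0.146). Spsb1, an adaptor of cullin ubiquitin ligases, was at 17.9, 19.2 and 20.2 against 29.9, 34.1 and 29.3 (0.70, SE 0.12). Abcc8, the sulfonylurea receptor of the ATP-sensitive potassium channel, was at 7.95, 8.86 and 8.29 against 13.4, 18.3 and 14.3 (0.87, SE 0.17). In all 3 the lowest knockout exceeded the highest wild type. Prr5l, a partner of mTOR complex 2, was at 61.9, 51.1 and 58.02 against 83.7, 96.5 and 88.8. Its estimate of 0.65 was 0.63 with the GC trend taken out, the smallest shift among the 12, and DESeq2 with the GC trend out called it (adjusted p = 0.00393). Itpk1, an inositol phosphate kinase, Lgi3, a secreted protein of the LGI family, and Nkain1, a partner of the sodium pump, had estimates of 0.74, 0.65 and 0.69. Plekhh1, Ttyh2, Arhgef10, Ankrd13a and Plekhg3 lay between 0.55 and 0.63. The adjusted p was 0.146 to 0.148 for all 24 genes.

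**Figure D2:**
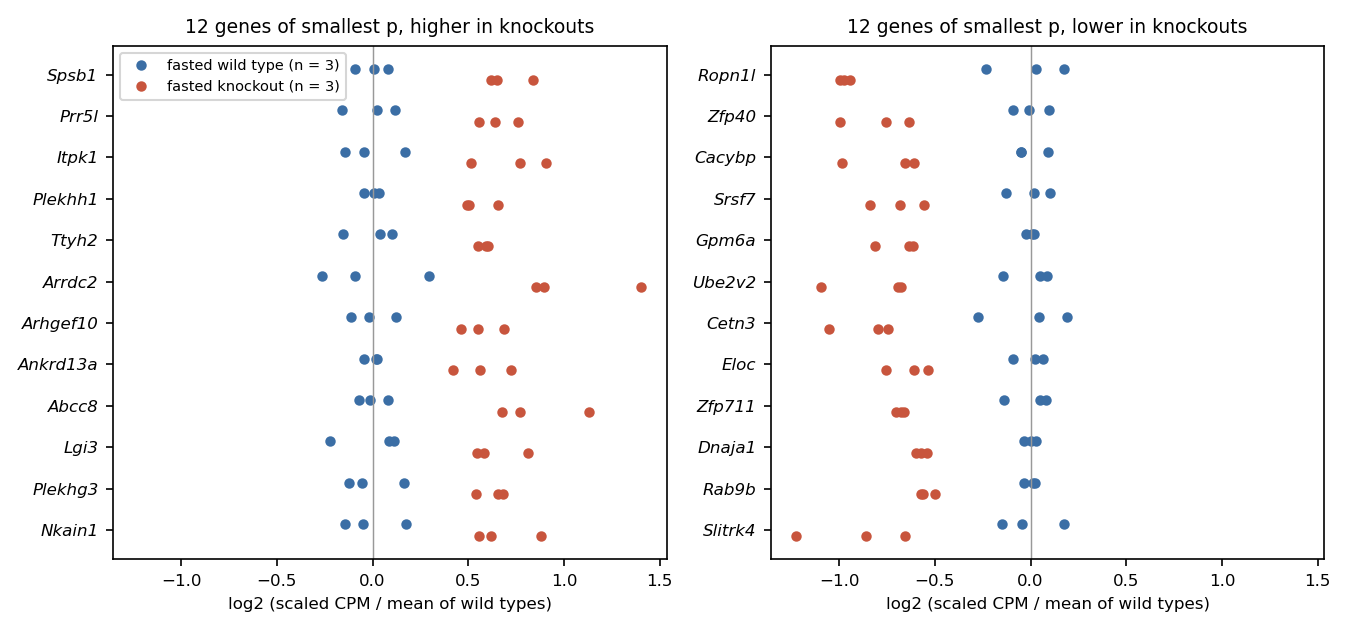
The 12 genes of smallest edgeR p per direction in fasted E3 mice, among genes that are not predicted models. The x axis is log2 of each library's scaled CPM over the mean of the 3 wild types (1 point per library, blue wild type, red knockout); in each gene the 3 knockouts lie on 1 side of the 3 wild types, as the choice by smallest p favours.

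A cluster of zinc finger genes on distal chromosome 2 had lower estimates in knockouts at nearly every gene. These genes encode KRAB zinc finger proteins, repressors that bind DNA and in many cases silence transposable elements, and they are recent copies of each other. Reads of near-identical copies can be assigned to any of them, so the values of single members are uncertain and the cluster is described as a whole. It was picked out after its values had been seen, and spans 175010241 to 178078476 (mm10, chromosome 2). How alike the copies are shows in the 250 bases before the start sites of 3 members, from RefSeq's mouse promoters (GRCm38.p6). Zfp968 (chr2:175372186-175372435, plus strand) and Zfp973 (chr2:176670272-176670521, plus strand) differ at the 1 base in capitals, and Zfp966 (chr2:175931101-175931350, minus strand) shares a run of 224 bases with Zfp968.
Zfp968: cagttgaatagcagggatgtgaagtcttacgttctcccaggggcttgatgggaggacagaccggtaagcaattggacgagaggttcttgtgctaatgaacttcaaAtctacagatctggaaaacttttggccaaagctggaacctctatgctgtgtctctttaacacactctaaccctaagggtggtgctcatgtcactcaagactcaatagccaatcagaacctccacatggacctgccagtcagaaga
Zfp973: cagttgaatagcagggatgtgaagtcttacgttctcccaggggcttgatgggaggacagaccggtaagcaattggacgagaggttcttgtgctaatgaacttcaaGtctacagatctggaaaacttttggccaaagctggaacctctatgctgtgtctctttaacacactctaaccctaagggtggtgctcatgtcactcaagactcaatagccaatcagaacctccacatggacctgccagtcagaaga
Zfp966: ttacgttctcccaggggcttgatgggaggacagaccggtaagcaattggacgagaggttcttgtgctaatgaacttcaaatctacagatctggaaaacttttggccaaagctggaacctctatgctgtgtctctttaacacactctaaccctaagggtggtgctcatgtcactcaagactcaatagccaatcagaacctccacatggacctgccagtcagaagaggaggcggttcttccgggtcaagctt
The promoter of Zfp967 has the same 250 letters as that of Zfp966, and Gm4724, Gm2026, Gm14434 and Gm14308 share 1 sequence among them. Of 465 pairs of the 31 members with a RefSeq promoter, 13 were over 90% identical when compared position by position, without alignment. Pairs that match at a shift, such as Zfp966 and Zfp968, are missed by that count.

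In fasted mice all 44 measured members of the cluster, of 45 in the table, had negative estimates, with a median of -0.76 and a range of -1.03 to -0.04. Of the 44, 35 had an unadjusted p under 0.05, all lower, against 9.92% of all genes. Groups did not overlap for 34, all lower, against 12.3% of all genes in that direction. Summed over the cluster, fasted wild types held 5095, 3940 and 4785 scaled CPM, and fasted knockouts 3035, 3019 and 2245. Every wild type lay above every knockout, with wild type 2 the nearest to them. The log2 ratio of the group means was -0.74 (exact permutation p = 0.1, two-sided, the smallest that 3 against 3 can give). The cluster was picked out after these values had been seen, so this p and the counts above give no support for a difference. In fed mice the sums were 2560, 2666 and 2707 in wild types and 2703, 2634 and 2816 in knockouts, which overlap (0.04, exact permutation p = 0.5). The fasted knockouts thus stood near the fed level and the fasted wild types above it.

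Values of single members are given as examples, since copies that can share reads are not separate observations. Zfp966 was at 108.1, 75.3 and 96.8 scaled CPM in fasted wild types and 58.6, 59.8 and 47.4 in knockouts (-0.76, SE 0.15), and Zfp968 at 104.5, 72.8 and 96.3 against 55.8, 58.6 and 42.4 (-0.80, SE 0.17). Zfp973, whose promoter differs from that of Zfp968 at 1 base, was at 226.9, 181.9 and 205.4 against 161.0, 158.8 and 151.8, a smaller estimate of -0.38 (SE 0.12). Zfp931, the last measured member, was at 47.1, 32.4 and 44.9 against 24.7, 21.8 and 21.9 (-0.86, SE 0.16). In each of these 4 genes wild type 2 was the lowest wild type and still above every knockout. Among members with predicted-model names, 34 of the cluster, Gm4631 had the smallest p, at 210.1, 189.8 and 214.2 against 126.3, 124.3 and 105.1 (-0.79, SE 0.12). The 12-library model called 33 members, all lower, against 2.93% of all genes in that direction. It called 0 of the 44 with the GC trend taken out (smallest adjusted p = 0.0691), and 0 genes without wild type 1 or without wild type 3. The cluster was picked by fasted values that this model also fits, so the 33 give no support for a difference. The median over the cluster lay between -0.63 (without knockout 3) and -0.89 (without wild type 2) when 1 library was left out.

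The cluster is poor in GC, with a median of 39.8% in the longest transcripts. With the GC trend taken out its median was -0.40, 39 of 44 estimates were negative, and 33 had an unadjusted p under 0.05, against 4.59% of all genes in that direction. Listed zinc finger genes elsewhere in the genome, with a like median GC of 40.6%, had a median of -0.35 as counted (79 of 88 negative) and -0.09 with the trend out (65 negative, 10 with an unadjusted p under 0.05). The 14 genes within 1 Mb on either side of the cluster had a median of -0.03, with 7 negative. With the GC trend taken out DESeq2 called 53 of 9210 genes lower, among them 12 of the 37 cluster members that it gave an adjusted p. The cluster was picked by the values of these same libraries. Its counts here, and its contrast with the other zinc finger genes and the flanking genes, therefore give no support for a difference. Among the other zinc finger genes, Zfp72 was at 19.9, 16.1 and 19.9 in wild types against 10.6, 10.5 and 10.5 in knockouts (-0.82), and Zfp758 at 35.7, 32.3 and 33.1 against 22.1, 20.8 and 14.3 (-0.83). Both shrank with the GC trend taken out, to -0.39 and -0.36.

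**Figure D3:**
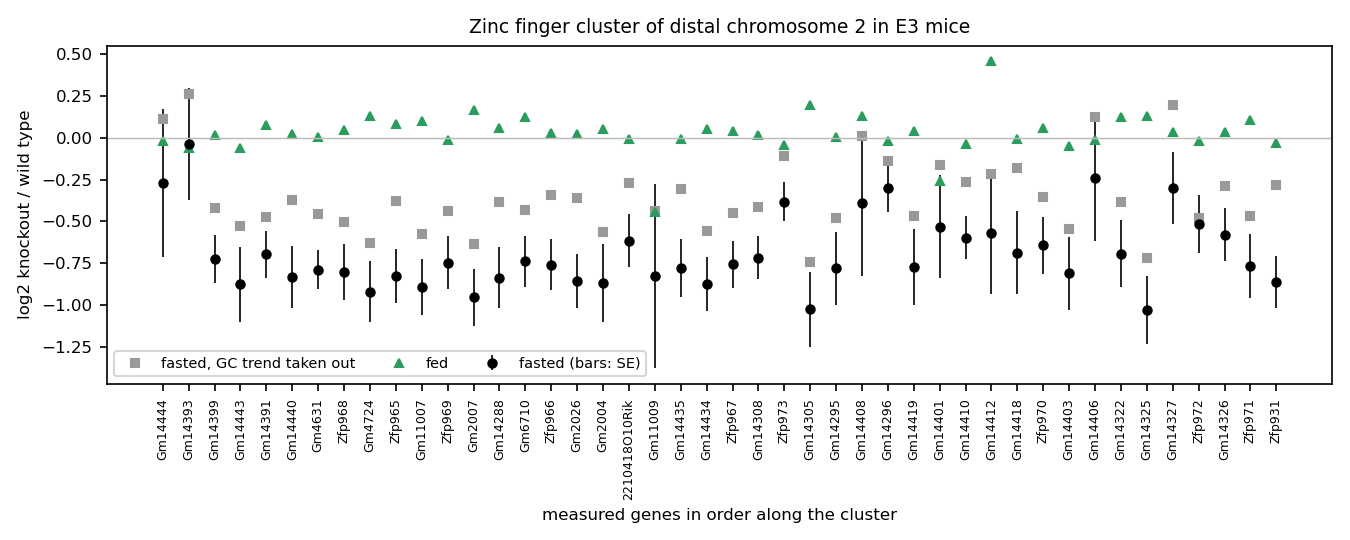
Estimates of the 44 measured zinc finger genes of the chromosome 2 cluster in their order along the chromosome (x axis), as log2 knockout over wild type (y axis). Black points with SE bars are fasted mice, grey squares the same with the GC trend taken out, and green triangles fed mice; medians are -0.76, -0.40 and 0.03.

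Targets of glucocorticoid and FoxO signalling in fasting had higher estimates in knockouts. Of 23 measured members 20 were positive, with a median of 0.36 against 0.02 over all genes, and 9 had an unadjusted p under 0.05, all higher (background 7.53%). After the GC step the median was 0.27 and 6 members were at an unadjusted p under 0.05 (background 3.77%). Plin4, a lipid droplet coat protein, was at 65.9, 38.7 and 41.4 scaled CPM in wild types and 74.5, 145.7 and 125.5 in knockouts (1.25, SE 0.27). Knockout 1 lay close to wild type 1, and the other 2 knockouts stood well above. Klf15, a transcription factor of amino acid catabolism, was at 36.8, 40.3 and 31.6 against 51.4, 49.8 and 53.1 (0.50, SE 0.12). Ddit4, an inhibitor of mTOR signalling, was at 28.7, 25.6 and 21.6 against 35.6, 41.4 and 37.2 (0.59, SE 0.14). Zbtb16, a zinc finger transcription factor, was at 122.1, 132.6 and 88.5 against 153.4, 191.3 and 178.6 (0.61, SE 0.16). In fed mice the list's median was -0.08. The median was 0.27 without knockout 2 (16 positive) and 0.28 without wild type 3, where 5 members had an unadjusted p under 0.05. In the 250 bases before the start sites, the palindrome GNACANNNTGTNC of the glucocorticoid receptor was found in 3 of 23 members (Mt1, Txnip and Map3k6; 13%) and in 0.381% of 27025 promoters.

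Among feeding peptides and their receptors, 1 of 22 measured genes had an unadjusted p under 0.05 (4.55%, against 17.5% of all genes). It was Pmch, the precursor of melanin-concentrating hormone, a peptide of the lateral hypothalamus that drives feeding. Pmch was at 73.1, 57.7 and 84.8 scaled CPM in fasted wild types and 45.5, 30.5 and 35.7 in knockouts. No knockout reached the lowest wild type. The estimate was -0.95 (SE 0.18, edgeR adjusted p = 0.146), and -0.70 with the GC trend taken out, where DESeq2 still called it (adjusted p = 0.0193). In fed mice Pmch was at 22.9 ± 4.82 in wild types and 23.2 ± 4.02 in knockouts (SD, n = 3), so both fasted groups were above the fed ones and the fasted wild types highest. Hcrt, the precursor of the orexins of the lateral hypothalamus, was at 17.7 to 25.8 CPM in knockouts and 18.6 to 30.0 in wild types, which overlap. The list's median was -0.10, with Bdnf at -0.41, Npy1r at -0.25 and Sst at -0.23. With the GC trend taken out the median was -0.21, with 2 lower (background 4.59%) and 1 higher (3.77%) at an unadjusted p under 0.05. As counted it was -0.22 without knockout 3, -0.18 without knockout 1, -0.18 without knockout 2 and -0.17 without wild type 1. Without wild type 3 it was -0.14, and without wild type 2 it was -0.08.

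Chaperones of the heat shock response had lower estimates: 17 of 18 members were negative, with a median of -0.31, and 7 had an unadjusted p under 0.05, all lower (background 9.92%). The GC step left a median of -0.29 and 6 such members (background 4.59%). Dnaja1, a co-chaperone of the cytosolic Hsp70 system, was at 262.9, 257.0 and 268.2 scaled CPM in wild types and 180.7, 177.0 and 173.5 in knockouts (-0.57, SE 0.10). Hsp90aa1, the inducible cytosolic Hsp90, was at 975.5, 1040 and 1264 against 671.5, 721.6 and 846.1 (-0.55, SE 0.15). Chordc1, a partner of Hsp90, was at 154.6, 133.1 and 172.6 against 105.1, 95.7 and 75.6 (-0.74, SE 0.15). For each of the 3 the groups did not overlap. Hspe1, the mitochondrial co-chaperonin, was at 73.2, 67.0 and 81.1 against 56.5, 44.9 and 39.9 (-0.65, SE 0.15). It was the 1 of 14 list members whose promoter held TTCNNGAANNTTC or its complement GAANNTTCNNGAA, letters of a heat shock element that 0.4% of 27025 promoters hold. The 30 bases printed, with the match in capitals, lie at chr1:55088053-55088082 (GRCm38.p6, plus strand, RefSeq).
Hspe1: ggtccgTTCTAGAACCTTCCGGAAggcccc
A match is a description of these letters. The median of the list was -0.21 without wild type 2, with 6 of 18 positive, and -0.41 without wild type 1, where 11 members had an unadjusted p under 0.05.

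Genes of protein entry into the secretory pathway had lower estimates at 22 of 27 members, with a median of -0.25 (-0.13 with the GC trend taken out) and 11 at an unadjusted p under 0.05, all lower (background 9.92%). That count was 8 with the GC trend taken out (background 4.59%) and 7 without the 2 libraries with choroid plexus transcripts. Spcs3, a subunit of the signal peptidase, was at 69.4, 61.7 and 61.5 scaled CPM in wild types and 45.9, 42.8 and 40.2 in knockouts (-0.58, SE 0.11). Spcs1, another subunit, was at 41.7, 41.4 and 39.9 against 30.6, 24.4 and 24.1 (-0.64, SE 0.13). Both subunits were lower in each knockout than in any wild type. Srp19, of the signal recognition particle, was at -0.74, and Ssr3, of the translocon-associated complex, at -0.40. The unfolded protein response list had a median of -0.19 (-0.23 with the GC trend taken out) with 5 of 19 lower at an unadjusted p under 0.05 (4 with the trend out), led by Hsp90b1, the chaperone of the endoplasmic reticulum, at 183.5, 207.7 and 197.3 against 153.9, 140.5 and 144.3 (-0.42). The count of 5 was 2 without knockout 2, 2 without wild type 3 and 1 without the 2 libraries with choroid plexus transcripts.

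Subunits of the ribosome and of the respiratory chain also had lower estimates. Among 69 cytosolic ribosomal protein genes 55 had negative estimates, with a median of -0.20 (-0.25 with the GC trend taken out), and 24 had an unadjusted p under 0.05 on that side (background 9.92%), or 28 with the trend out (background 4.59%). Rps27a, which encodes a ribosomal protein fused to ubiquitin, was at 193.9, 118.1 and 185.5 scaled CPM in wild types and 98.3, 104.5 and 90.03 in knockouts (-0.77, SE 0.18). Rpl30 was at 138.2, 91.2 and 137.4 against 86.3, 77.9 and 68.6 (-0.66, SE 0.17). In both, wild type 2 lay nearer to the knockouts than to the other wild types. Rpl26 and Rpl37 were at -0.56 and -0.54, and at -0.79 and -0.70 with the GC trend out. The list's count was 10 without wild type 3, 14 without knockout 3 and 29 without wild type 2.

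Of 56 nuclear genes of the respiratory chain 38 had negative estimates, with a median of -0.14 (-0.21 with the GC trend taken out) and 13 at an unadjusted p under 0.05 on that side (background 9.92%), or 16 with the trend out (background 4.59%). Uqcrb, a subunit of complex III, was at 150.4, 104.6 and 142.3 scaled CPM in wild types and 71.1, 84.2 and 45.2 in knockouts (-0.99, SE 0.22). Ndufa4 was at 98.7, 76.3 and 95.9 against 49.3, 61.7 and 36.6 (-0.88, SE 0.19). Cox7b, an X-linked subunit of complex IV, was at 118.9, 91.5 and 125.2 against 68.0, 70.3 and 47.1 (-0.86, SE 0.18), and Cox7a2 at 77.2, 65.2 and 94.4 against 49.0, 55.5 and 38.6 (-0.73, SE 0.17). In all 4 knockout 3 was the lowest library and the groups did not overlap. Many members share sequence with processed pseudogenes, and their counts are uncertain to that extent. The list's median was -0.07 without wild type 3, where 8 members had an unadjusted p under 0.05 on the lower side, and -0.24 without knockout 2.

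**Figure D4:**
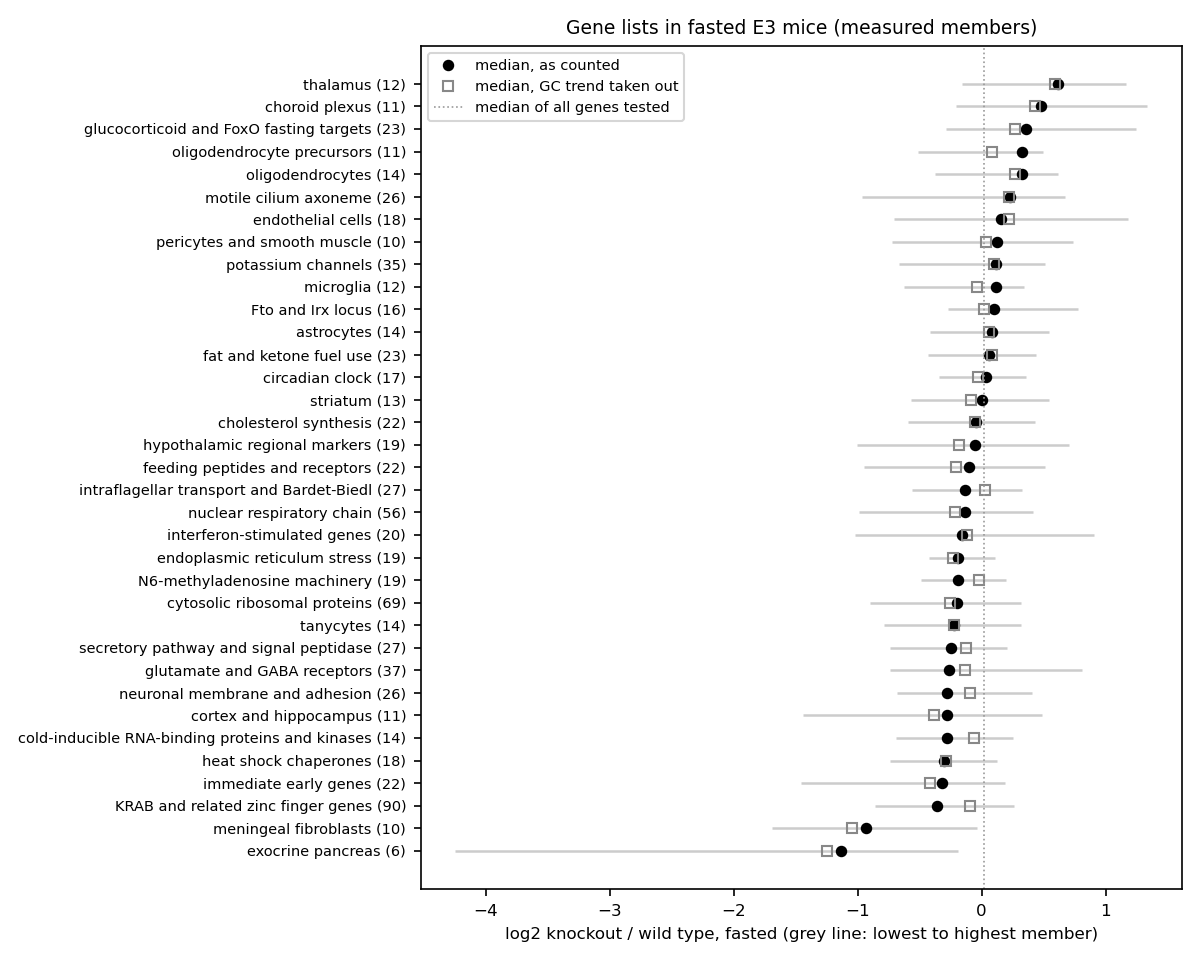
Median log2 knockout over wild type in fasted E3 mice (x axis) for each gene list (y axis, number of measured members in brackets), as counted (black) and with the GC trend taken out (open squares). Grey lines run from the lowest to the highest member and the dotted line is the median of all genes, 0.02; the zinc finger list moves from -0.36 to -0.10 and the heat shock list from -0.31 to -0.29.

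Several groups stood lower as counted and close to 0 once the GC trend was taken out. RNA-binding proteins and kinases of the cold response had a median of -0.28 with 8 of 14 lower at an unadjusted p under 0.05 (background 9.92% here and in the next lists) and -0.06 with the trend out, where 2 were (background 4.59%). The count of 8 was 5 without knockout 2. They include the splicing factors Srsf3 (-0.45) and Tra2b (-0.46) and the splicing kinase Clk1 (-0.64), with the highest knockout at 121.6 scaled CPM and the lowest wild type at 141.5. The machinery of N6-methyladenosine, the mark that Fto removes, had a median of -0.19 with 6 of 19 lower at an unadjusted p under 0.05, and -0.02 with the trend out, where 0 were. Wtap, of the writer complex, was at 88.2, 80.0 and 87.2 against 68.3, 59.4 and 54.8 (-0.49). The readers Ythdf3 and Ythdc1 were at -0.46 and -0.37, and at -0.08 and 0.03 with the trend out. Without wild type 1 and knockout 2, the libraries with choroid plexus transcripts, 1 of the 19 had an unadjusted p under 0.05. That is a share of 5.26%, against 8.53% of all genes in that fit.

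Neuronal adhesion genes were at a median of -0.28, with 10 of 26 lower at an unadjusted p under 0.05 (background 9.92%). With the GC trend out the median was -0.10 and 4 of the 26 were lower at that level (background 4.59%). Ncam2, an adhesion molecule of the axon, was at 1004, 912.9 and 1081 scaled CPM in wild types and 790.9, 705.0 and 574.5 in knockouts (-0.53). Glutamate and GABA receptor genes had a median of -0.26, with 13 of 37 lower (background 9.92%) and 5 higher (7.53%) at an unadjusted p under 0.05. Their median was -0.13 with the GC trend out, with 2 lower (background 4.59%) and 1 higher (3.77%). Gabra2, a GABA type A subunit, was at 421.5, 345.9 and 323.0 against 259.2, 205.2 and 190.1 (-0.74), and Gabra3 (-0.43) was on the same side. Grin2c, an NMDA receptor subunit, was higher in every knockout, at 14.1, 19.7 and 16.4 against 20.0, 31.1 and 32.6 (0.74). Gabra2 has 38.4% GC and Grin2c 62.1%. The adhesion count was 3 without wild type 1, 4 without knockout 3 and 6 without wild type 3. Receptors had 6 lower and 2 higher without wild type 1, the same without knockout 3, and 7 lower without wild type 3. Potassium channels had a median of 0.12 (0.10 with the GC trend out), and their 4 higher and 2 lower of 35 are a share of 17.1% against 17.5% of all genes. Kcnc1, a fast delayed rectifier, was at 0.45. Without wild type 1 there was 1 higher and 0 lower channel.

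Markers of oligodendrocytes, the myelinating glia, had higher estimates in knockouts. The median was 0.32 (0.27 with the GC trend taken out), 10 of 14 were positive and 7 had an unadjusted p under 0.05, all higher (background 7.53%). With the trend out 3 did (background 3.77%). Myrf, the transcription factor of myelination, was at 54.9, 70.1 and 66.7 scaled CPM in wild types and 89.2, 108.6 and 97.0 in knockouts (0.62, SE 0.13). Mobp, a myelin protein, was at 213.0, 235.6 and 223.1 against 297.8, 398.2 and 306.4 (0.58, SE 0.14). Mag and Hapln2, of the myelin sheath and the node of Ranvier, were at 0.60 and 0.59. Each of the 4 was higher in every knockout than in any wild type. The summed CPM of the 14 markers nonetheless overlapped, at 5794, 6501 and 4967 in knockouts and 3737, 5310 and 4774 in wild types. Without wild type 1 and knockout 2 there were 3 higher and 3 lower members at an unadjusted p under 0.05. Astrocyte markers had a median of 0.08 (0.06 with the GC trend out). At an unadjusted p under 0.05, 5 of 14 were higher (background 7.53%), and 2 with the trend out (background 3.77%). Among the 5 was Agt, the precursor of angiotensin, at 112.7, 120.9 and 128.6 against 158.5, 170.0 and 200.1 (0.55). The astrocyte count was 2 higher and 1 lower without wild type 1, and 3 higher without knockout 1, knockout 2 or wild type 3. Endothelial markers had a median of 0.16 (0.22 with the GC trend out), with 12 of 18 positive. At an unadjusted p under 0.05, 1 was higher and 1 lower, a share of 11.1% against 17.5% of all genes. The higher one was Slc2a1, the glucose transporter of brain endothelium, at 20.0, 22.3 and 19.0 against 25.1, 32.5 and 29.7 (0.51). The lower one was Ly6c1, at 10.1, 10.2 and 9.04 in wild types against 7.48, 8.27 and 6.09 in knockouts (scaled over the 12 libraries). Groups did not overlap for either gene. Without wild type 3 the endothelial median was -0.02 with 1 higher and 3 lower (22.2% against 12.1% of all genes). Without wild type 2 it was 0.30 with 6 higher (33.3% against 24%).

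Immediate early genes, which mark recent neuronal activity, had 21 of 22 negative estimates and a median of -0.32 (-0.42 with the GC trend out). At an unadjusted p under 0.05 there were 2, both lower, a share of 9.09% against 17.5% of all genes. It was 27.3% (6 members) without wild type 3, 22.7% (5) without knockout 1 and 18.2% (4) without wild type 1. The shares of all genes there were 12.1%, 16.7% and 10.4%. Homer1, a scaffold of the synapse with an activity-induced short form, was at 224.6, 182.2 and 147.6 scaled CPM in wild types and 136.9, 120.8 and 80.6 in knockouts (-0.71). The median was -0.02 without wild type 2, in which cortical and meningeal transcripts were highest (Slc17a7 at 174.7 CPM against 15.3 to 99.0). Meningeal markers themselves had a median of -0.93, with Dcn at 77.4 in wild type 2 against 4.89 to 16.1 elsewhere. Without wild type 2 that median turned to 0.20, with 7 of 10 positive. At an unadjusted p under 0.05, 2 meningeal markers were lower, a share of 20% against 17.5% of all genes. There were 6 without wild type 3 (60% against 12.1%), and 0 without knockout 3 or wild type 2. Thalamic markers had a median of 0.62, with 11 of 12 positive and 0 at an unadjusted p under 0.05. Without wild type 3 the median was 0.995 and 9 were higher at that level, without knockout 1 it was 0.79 and 6 were, and without wild type 2 it was 0.34 and 0 were. The GC step left the meningeal median at -1.045 and the thalamic at 0.59. The circadian clock, fat and ketone fuel use and cholesterol synthesis lists had medians of 0.03, 0.06 and -0.05 (-0.03, 0.09 and -0.05 with the GC trend out). Those of the clock (-0.04 without knockout 2) and of cholesterol synthesis (0.04 without wild type 2) changed sign with 1 library. Within cholesterol synthesis, Idi1 was at 55.1, 64.8 and 75.6 against 41.0, 36.5 and 51.8 (-0.60) and Msmo1 at -0.50.

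The knockout effect was then compared between fasted and fed E3 mice by an interaction term over the 12 libraries. It called 202 of 15033 genes (1.34%), 73 (0.486%) with a higher and 129 (0.858%) with a lower knockout effect when fasted. The 5 named genes of smallest p were Spcs3, Gpm6a, Zfp40, Ropn1l and Spsb1. Gpm6a was at 1282 ± 11.9 in fasted wild types and 803 ± 63.2 in fasted knockouts, and at 672 ± 14.02 and 812 ± 39.2 in fed ones (SD, n = 3 each, scaled CPM), a difference of -0.95 between the effects (edgeR adjusted p = 0.0255). Spsb1 was at 19.0 ± 1.29 and 31.2 ± 2.71 when fasted and 21.7 ± 1.21 and 16.3 ± 2.29 when fed (1.13, adjusted p = 0.0357). In Gpm6a the fasted knockouts stood at the level of the fed ones and the fasted wild types above, whereas in Spsb1 the fasted knockouts were the highest group. In the chromosome 2 cluster, picked out after its fasted values had been seen, 15 of 44 measured members were called, all lower. Those fasted values also enter this term. The count of 202 was 0 with the GC trend taken out and 0 in each of 8 of the 12 fits without 1 library, and 29, 183, 252 and 697 without fasted knockout 3, fed wild type 1, fasted knockout 1 and fasted wild type 2.

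**Figure D5:**
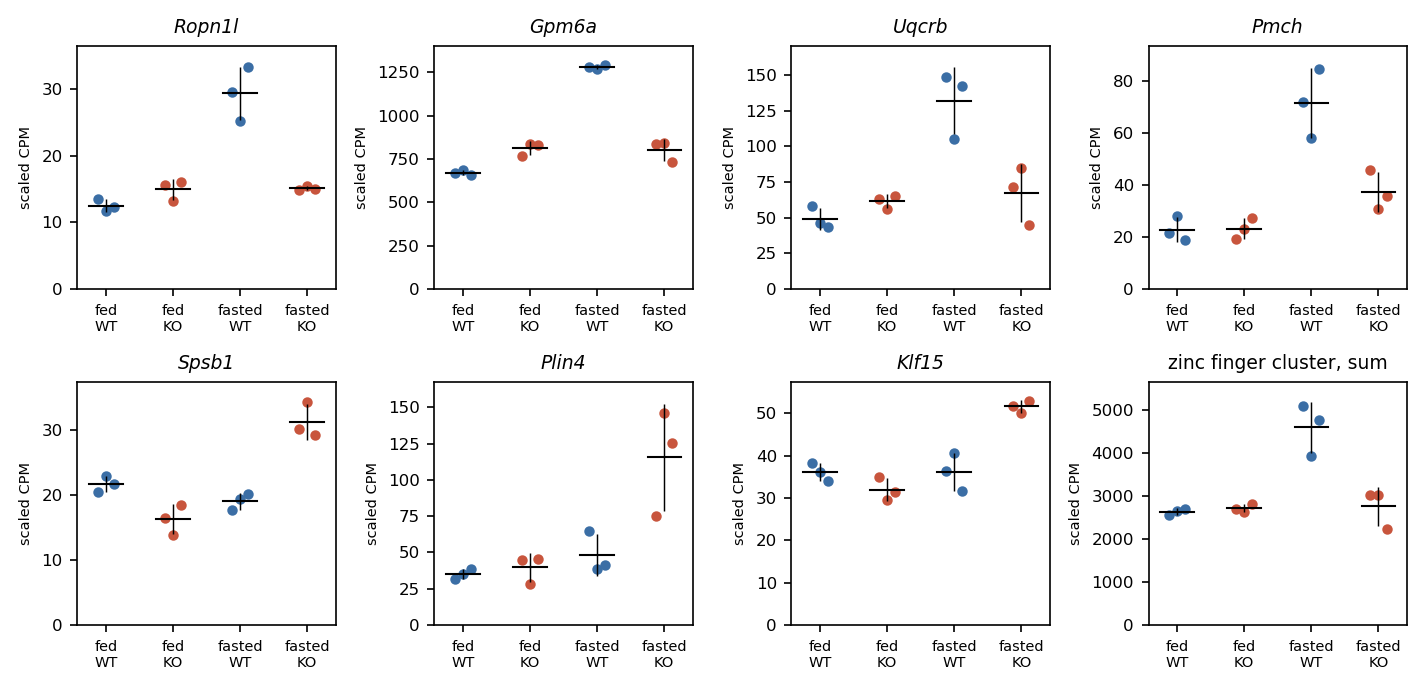
Scaled CPM (y axis, from 0) of 7 genes and of the summed zinc finger cluster in the 4 groups of E3 mice, 1 point per library with the group mean (line) and SD (bar). In Ropn1l, Gpm6a, Uqcrb, Pmch and the cluster the fasted wild types are the highest group; in Spsb1, Plin4 and Klf15 the fasted knockouts are.

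The 24 genes of smallest p were looked up in the fasted knockouts of the other lines, each against its own wild types. In E5 (4 against 4), 11 of the 12 higher genes had positive and all 12 lower genes negative estimates, at medians of 0.12 and -0.21, and 7 of the 24 had an unadjusted p under 0.05, all in the direction seen in E3, against 7.32% of all genes in E5. They were Prr5l (0.40), Plekhh1 (0.33), Nkain1 (0.26), Gpm6a (-0.25), Eloc (-0.23), Zfp711 (-0.26) and Dnaja1 (-0.28). Ropn1l was at -0.13 in E5. In E2 (3 against 3) 1 of the 12 higher genes was positive and 0 of the 12 lower genes negative, with medians of -0.20 and 0.31 and 5 at an unadjusted p under 0.05 (background 7.47%). E1 (background 3.9%) and E4 (9.39%) had 0 of the 24 at an unadjusted p under 0.05. The relation of the estimates to GC content differed likewise: r across genes was 0.514 in E3, 0.0827 in E5, -0.145 in E2, -0.192 in E4 and -0.00443 in E1. The chromosome 2 cluster was at a median of -0.08 in E5, 0.04 in E2, 0.08 in E1 and 0.09 in E4.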

How the data were processed

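RNA-seq of mouse hypothalamus was used as the raw counts per Ensembl gene (21749 genes) that the authors deposited for E3, with HISAT2, Bowtie2 and the mm10 build named in the submitters' processing notes; versions, the counting tool and strand are not given in the sources used here. Without strand, reads of overlapping antisense genes cannot be told apart. The authors also deposited edgeR results with log2 fold changes and p-values, used for the last section only. Counts of the 6 fasted E3 libraries were fitted here with edgeR 4.0.16 in R 4.3.3 (glmQLFit and glmQLFTest, TMM, filterByExpr at a count of 10 and a total of 15) and no covariates. The threshold for a call was 0.05 after Benjamini-Hochberg adjustment. The interaction used the 12 E3 libraries in the same way. Depth was 14911351 to 23619033 counts per fasted library, and the fits carry counting error and spread between libraries together.

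Alternatives were RLE, DESeq2 1.42.0, no filter, the likelihood ratio test, a replicate block, 12 libraries in 1 model, libraries left out, and trends on GC content or length of the longest transcript (GENCODE vM21) taken out as a per-library lowess (span 0.3) offset. The combinations of the 12-library model and DESeq2 with the GC step, left-out libraries or the block were added after the data had been seen, as were the pancreas list and the zinc finger cluster. Symbols came from GENCODE by identifier (21707 of 21749 matched).

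Named genes were Fto, Rpgrip1l and the Irx genes, the 12 of smallest p per direction (mean of at least 1 log2 CPM, no predicted models), up to 4 of smallest p per list and 5 of the interaction; not all are printed. The members and the 36 lists were chosen with earlier results of these data known. The fits were tested on simulated data. Motifs were searched on both strands of the first listed start site of each gene.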

Additional observations from a re-analysis of the deposited data

Results flagged for a closer look

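For 42 of the named genes and members of the chromosome 2 cluster, the knockout effect differed between fasted and fed E3 mice by the edgeR interaction term over 12 libraries at an adjusted p under 0.05. Over all genes that term called 202 of 15033 (1.34%). Many of the 42 were chosen by fasted values that also enter the interaction, so their number is no separate support for a difference. Values in brackets are the log2 effect when fasted minus that when fed. A higher effect when fasted was found for Spsb1 (1.13), Itpk1 (0.98), Plekhh1 (0.96), Arhgef10 (0.81), Nkain1 (1.13), Klf15 (0.69), Agt (0.67), Slc2a1 (0.84), Ift43 (0.76) and Cux2 (0.78). A lower effect when fasted was found for Spcs3 (-0.89), Gpm6a (-0.95), Zfp40 (-1.13), Ropn1l (-1.21), Cacybp (-0.76), Srsf7 (-0.84), Ube2v2 (-0.75), Cetn3 (-1.08), Eloc (-0.72), Slitrk4 (-1.1), Spcs1 (-0.81), Ssr3 (-0.64), Ndufa4 (-1.16), Uqcrb (-1.29), Wtap (-0.65), Zfp72 (-0.92) and Zfp758 (-0.99). In the cluster it was lower for Zfp931 (-0.82), Gm4631 (-0.78), Gm2007 (-1.11), Gm14325 (-1.15), Gm14308 (-0.72), Gm14434 (-0.92), Gm4724 (-1.04), Gm2026 (-0.87), Zfp966 (-0.77), Zfp967 (-0.79), Gm14391 (-0.76), Zfp965 (-0.9), Gm11007 (-0.98), Gm6710 (-0.85) and Gm14305 (-1.21). With the GC trend of each library taken out the interaction called 0 genes. Leaving out fasted wild type 1, fasted wild type 3 or fasted knockout 2 also gave 0. The same count of 0 came without fed knockout 1, 2 or 3 and without fed wild type 2 or 3, each left out singly. The GC trends of fasted wild types 1 and 3, at -0.51 and -0.40, were the farthest from the 0.04 to 0.19 of the fed libraries. That of fasted knockout 2 was 0.01. The part of GC trends in the differences was not tested beyond these fits.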

How the results depend on the processing

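The main results are unpaired, since the labels do not say whether a shared replicate number pairs libraries. Deviations of same-numbered knockouts and wild types correlated at 0.046, 0.075 and 0.22, and those of other pairs at -0.17 to 0.073. Of the 6 libraries all but wild type 1 correlated best with their own number, so pairing is not settled. With the replicate number as a block, edgeR on the 6 libraries called 0 genes, as without it. The 12-library model called 127 with the block (605 without) and the interaction 0 (202 without).

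For the fasted comparison the count of 0 called genes was also 0 with RLE normalization, without the filter on low counts, with the GC or length trend taken out, without the libraries with choroid plexus transcripts and without each library in turn. It was 280 with the likelihood ratio test, 539 with DESeq2 and 605 in the 12-library model. With the GC trend taken out DESeq2 called 63 and the 12-library model 1. DESeq2 without the libraries with choroid plexus transcripts called 14, and the 12-library model 0. Leaving out knockouts 1 to 3 and wild types 1 to 3 in turn gave 490, 388, 128, 111, 1416 and 108 calls by DESeq2 and 562, 413, 36, 0, 1491 and 0 in the 12-library model. The interaction's 202 calls became 1098 with DESeq2, 313 with the length trend taken out, 0 with the GC trend taken out, 0 with that and the block, 0 without the libraries with choroid plexus transcripts, and 0 to 697 without 1 library. Where the GC trend ended calls, the cause was not tested.

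Of 3003 refitted estimates of 91 of the named genes, 4 changed sign, all for Ythdc1 with the GC trend taken out: 0.0345 with edgeR, 0.036 with the block added, 0.0326 in the 12-library model and 0.0252 with DESeq2. That count does not cover the other named genes, so it does not say how stable their signs are. Of 1188 refitted list medians 100 moved by more than the spread between libraries. Depth was 14911351 to 23619033 counts, with every knockout library deeper than every wild type library. With 3 libraries a group the SE of the 24 genes of smallest p was 0.09 to 0.20 on the log2 scale.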

Other observations

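With the GC trend of each library taken out, DESeq2 called 63 of 9210 genes (0.684%), 10 higher and 53 lower in fasted knockouts. Outside the zinc finger cluster the lower genes included Skp1a, of the SCF ubiquitin ligase, at 412 scaled CPM in wild types against 266 in knockouts (log2 -0.52 with the trend out). Also lower were Dynll1, a dynein light chain (163 against 97.1, -0.75), Cnr1, the cannabinoid receptor CB1 (157 against 96.1, -0.61), Ppia, cyclophilin A (641 against 477, -0.47), and the mitochondrial genes Ndufa5 (71.8 against 43.5, -0.80) and Atp5j (97.0 against 65.9, -0.63). Higher genes included Adipor2, an adiponectin receptor (111 against 160, 0.48), and Slc25a13, the mitochondrial aspartate and glutamate carrier citrin (28.1 against 47.9, 0.80). For Lekr1 the call rests on the trend step: as counted the estimate was 0.10, and with the trend out 0.58. These genes were chosen from the 63 after their values had been seen.

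In the authors' deposited table for this comparison 9 of 18140 genes had an adjusted p under 0.05, 1 higher and 8 lower in knockouts, and Ropn1l is among the 8. Of the 9, 3 passed the filter on low counts here. Several of the others rest on few counts in 1 library, such as 2210010C04Rik with 0 counts in each knockout and 47, 1 and 5 in wild types 1 to 3. Its CPM of 3.15 in wild type 1 goes with the pancreas transcripts of that library.

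By chromosome, the 12-library calls made up 8.27% of the genes tested on the X chromosome and 6.64% of those on chromosome 2, or 3.98% without the zinc finger cluster. They made up 2.32 to 5.98% on the other chromosomes, apart from 1 of 11 genes on the Y. Without wild type 1 or without wild type 3 that model called 0 genes.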
